A study of Mus musculus with 4 samples.

Results

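The extracellular matrix of the liver is laid down, cut and crosslinked by enzymes, and 52 genes of this machinery were represented by 87 probes on the arrays, out of 27669 genes and 41174 probes in all. They were chosen by gene name: the matrix metalloproteinases (Mmp), their tissue inhibitors (Timp), the ADAMTS proteases with their ADAMTS-like relatives (Adamts, Adamtsl), and lysyl oxidase with its paralogs (Lox, Loxl). The name rule itself uses no measured value, but it was set with earlier results of these data known. Of the 52 genes, 38 could be tested: 15 Mmp, 2 Timp, 15 Adamts, 2 Adamtsl and 4 Loxl genes.

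The samples were livers of male C57BL/6 mice fed a high-fat diet, in which both groups received an antisense oligonucleotide (ASO), a short nucleic acid designed to bind 1 transcript and lower it. In the livers labelled Plin2-ASO the target was Plin2, which encodes a protein coating lipid droplets, and the control livers came from mice given a scrambled sequence. Each mouse received 25 mg/kg by intraperitoneal injection, 2 times a week over 4 weeks. Each of 4 arrays of 2 colours held 1 liver labelled Plin2-ASO, coloured green with Cy3 (mice 6, 7, 9 and 10 on arrays 1 to 4), and 1 control liver, coloured red with Cy5 (mice 1, 2, 4 and 5). The dyes were never exchanged, so a dye effect of a probe and the treatment cannot be told apart, and an exchange of labels or dyes would mirror every direction below.

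Matrix metalloproteinases are zinc enzymes that cut collagens, elastin and other matrix proteins, and TIMPs bind their active site and block them. ADAMTS enzymes are related secreted proteases that trim procollagens, cut large proteoglycans and process von Willebrand factor. Lysyl oxidases act in the opposite sense and oxidise lysines of collagen and elastin, which starts the covalent crosslinks that make fibres stiff and hard to digest. In the liver these proteins come largely from stellate cells, macrophages, endothelial cells and infiltrating leukocytes, and their balance is known for its role in scarring and its reversal.

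The sequences that carry the main results are given here. The first set is the probes, 60 bases each, from the array annotation, with positions in mouse build mm7 as the files give them, plus strand. Mmp12 and Mmp7 are shown because their probes read 2 of the larger decreases among these genes. The 3 Timp1 probes are shown because they gave different readings for 1 gene. The Loxl2 probe is the second one for that gene, which read a smaller decrease than the brighter probe used below.
Mmp12, chr9:7352125-7352640: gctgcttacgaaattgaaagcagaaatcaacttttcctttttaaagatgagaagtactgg
Mmp7, chr9:7695434-7695493: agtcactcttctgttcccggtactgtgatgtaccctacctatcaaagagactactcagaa
Loxl2, chr14:64336628-64336687: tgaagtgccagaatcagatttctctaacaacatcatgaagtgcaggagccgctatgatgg
Timp1, chrX:19305929-19305988: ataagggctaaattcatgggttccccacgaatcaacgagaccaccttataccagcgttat
Timp1, chrX:19305989-19306238: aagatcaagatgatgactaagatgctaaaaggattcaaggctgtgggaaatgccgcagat
Timp1, chrX:19307699-19307758: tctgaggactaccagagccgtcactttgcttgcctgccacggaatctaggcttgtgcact

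Promoter windows of 300 bases (250 before and 50 after the annotated start) were taken from RefSeq in build GRCm38.p6, which held a window for 33 of the 52 genes. They are shown for the Mmp and the Timp gene with the smallest p. In the Mmp12 window capitals mark a match to the AP-1 motif TGANTCA, where N is any base. The later capitals there mark the TATA motif (TATAAA). In the Timp1 window capitals mark AGGAAG, which holds the core of ETS motifs. Matches were sought on both strands.
Mmp12, chr9:7347124-7347423, plus strand: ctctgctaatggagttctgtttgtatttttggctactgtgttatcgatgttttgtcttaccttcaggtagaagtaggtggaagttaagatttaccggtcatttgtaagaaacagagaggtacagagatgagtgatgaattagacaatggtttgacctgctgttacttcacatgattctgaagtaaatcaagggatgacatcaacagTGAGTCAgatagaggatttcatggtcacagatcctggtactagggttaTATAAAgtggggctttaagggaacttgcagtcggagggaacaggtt
Timp1, chrX:20869916-20870215, plus strand: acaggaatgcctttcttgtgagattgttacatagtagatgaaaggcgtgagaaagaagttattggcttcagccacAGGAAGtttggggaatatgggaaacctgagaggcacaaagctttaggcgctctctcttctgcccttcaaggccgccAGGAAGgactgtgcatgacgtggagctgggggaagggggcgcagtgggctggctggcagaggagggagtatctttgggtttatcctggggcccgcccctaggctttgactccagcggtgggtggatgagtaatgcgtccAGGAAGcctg
A further Mmp12 window for another annotated start did not hold the AP-1 motif. It was present in windows of 7 of the 33 genes (Mmp1a, Mmp3, Mmp7, Mmp10, Mmp12, Mmp13 and Mmp20), against 8.97% of 27025 genes with a window. AGGAAG was present in 14 of the 33 genes, against 38.4% of all genes, and TATAAA in 11 of the 33, against 15.7%. All 7 genes with TGANTCA lie in a cluster of Mmp genes on chromosome 9, and only Mmp8 of the 8 cluster genes on the arrays lacked it. A match is a description of the letters in this window only.

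The targeted transcript was measured first. The Plin2 probe (chr4:86060498-86060557, mm7) read log2 signals of 13.98, 13.83, 14.29 and 13.76 in the livers labelled Plin2-ASO, against 13.73, 13.68, 13.46 and 13.40 in the control livers. Plin2 was thus not lower in any liver labelled Plin2-ASO than in its partner on the array, with a mean log2 ratio of 0.40 (SE 0.15, n = 4 arrays, limma adjusted p = 0.155). The median spot signal ranged from 244 to 499 in green and from 256 to 637 in red, 59.9% to 70.1% of probes were well above background, and no spot was saturated. Array 3 stood apart: its ratios had a mean correlation of 0.33 with those of the other arrays, against 0.51 to 0.65 for arrays 1, 2 and 4, and calls that change without it are given with and without it. Each p measures the spread between these 4 pairs of mice.

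Of the 38 genes tested, 1 rose, 6 fell and 31 did not pass the test at an adjusted p of 0.05 (limma, Benjamini-Hochberg over 18044 genes). Over all genes tested 3.69% were called higher and 6.08% lower, 9.77% in all. The median log2 ratio of the 38 genes was -0.24, beside -0.03 over all genes, and 25 of them (65.8%) had a mean below 0, beside 53.8% of all genes. On arrays 1 to 4 their medians were -0.18, -0.42, -0.22 and -0.00. Among the 32 genes measured on all arrays, the livers labelled Plin2-ASO lay wholly below the control livers for 6 and wholly above for 1, where 10.5% and 5.55% of 16132 genes did so. The genes that fell were Mmp12, Mmp7, Mmp8, Mmp2, Loxl2 and Adamts7, and the gene that rose was Mmp15. Mmp2 and Mmp7 passed the filter on low signal only through the control livers, where they were higher. So did Mmp13 and Adamts15, which were called lower without array 3. With probes well above background on all arrays in both colours, 30 of these genes remained, of which 1 rose and 3 fell, beside 3.78% higher and 5.6% lower of 15079 genes. Without array 3 the counts were 5 that rose and 13 that fell, beside 12.5% higher and 20.8% lower of 17394 genes. Without array 1 they were 0 and 3, beside 0.886% and 1.27% of 16471 genes, and without array 2 also 0 and 3, beside 0.914% and 1.19% of 16194 genes. Without array 4 they were 1 and 6, beside 2.59% and 4.08% of 16381 genes.

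**Figure D1:**
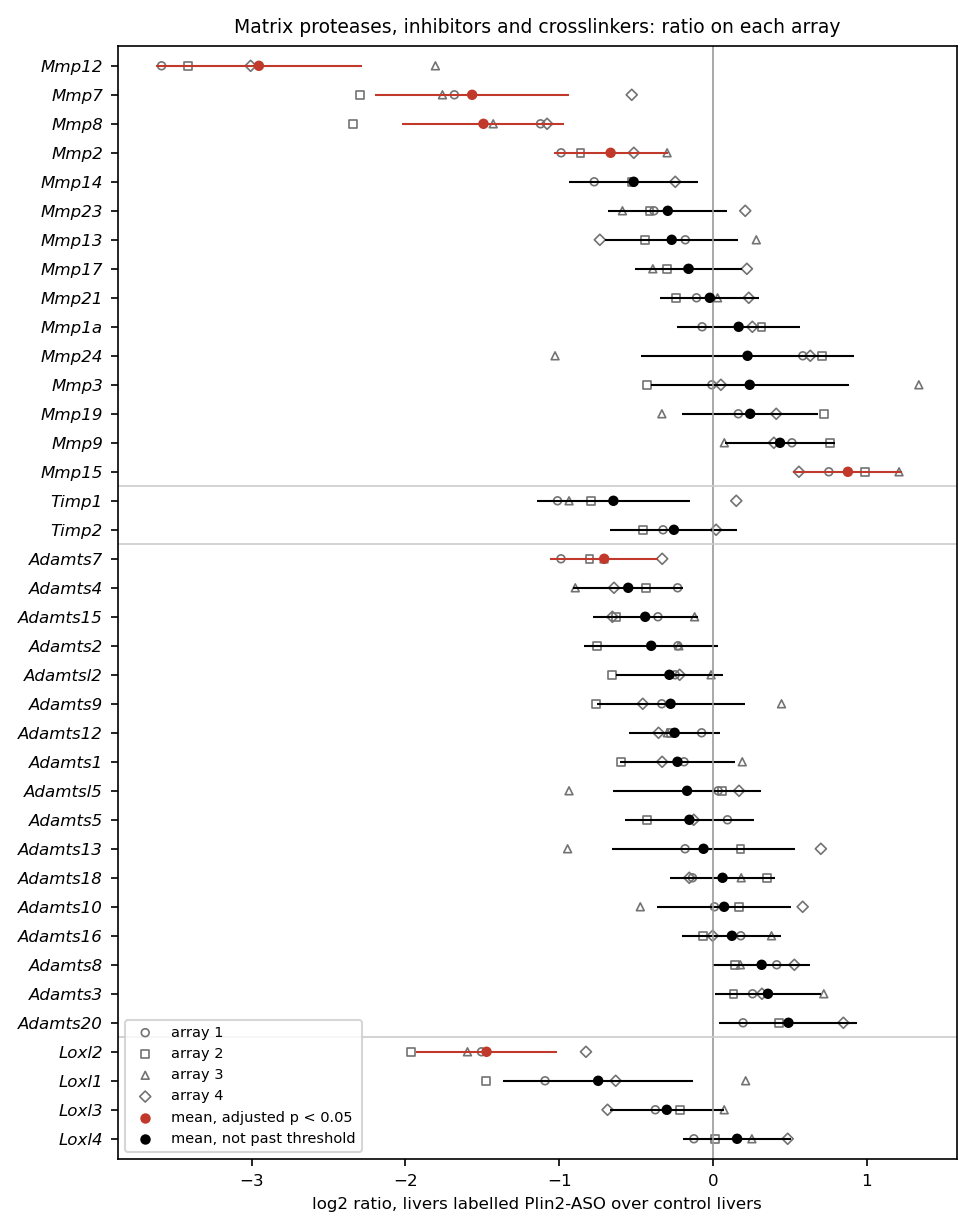
Log2 ratio of livers labelled Plin2-ASO over control livers (horizontal axis) for the 38 tested genes, grouped by family down the page. Open symbols are the 4 arrays, filled points the mean and bars its 95% interval, with red for adjusted p under 0.05. Mmp12 stands furthest left at -2.95, Mmp15 is the red point on the right at 0.88, and the black means lie between -0.75 and 0.49.

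Mmp12, macrophage elastase, which cuts elastin and many other matrix proteins, had the largest decrease of the 38 genes. Its log2 signal was 8.09, 7.72, 8.42 and 7.76 in the livers labelled Plin2-ASO, against 11.68, 11.14, 10.22 and 10.77 in the control livers. Every liver labelled Plin2-ASO was below every control liver, and the smallest gap between partners was on array 3. The mean log2 ratio was -2.95 (SE 0.29, n = 4 arrays, limma adjusted p = 0.00269), which is 7.74-fold lower in the livers labelled Plin2-ASO. Mmp12 fell in all 18 alternative settings run, with means between -3.48 and -2.74.

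Macrophage markers were measured beside Mmp12. Of 8 markers of lipid-laden and recruited macrophages 7 fell, including Gpnmb (-2.71), Lgals3 (-2.80) and Trem2 (-2.28, all log2 ratios), and their summed signal was 16617 to 23729 in the livers labelled Plin2-ASO, against 80063 to 131179 in the control livers. Of 7 measured markers of resident liver macrophages 4 rose and 2 fell, and Timd4 had no probe above background. Those that rose were Cd163 (3.08), Vsig4 (2.52), Marco (2.48) and Clec4f (2.37), and those that fell were Cd5l (-1.02) and Csf1r (-0.95). All 7 were measured together on arrays 2 and 4. Their summed signal there was 58591 and 80519 in the livers labelled Plin2-ASO, against 100879 and 60543 in the control livers, so it was lower on array 2 and higher on array 4. This sum weights the brighter markers, foremost Cd5l. The part of these cells in the Mmp12 result was not tested. In whole liver, fewer cells of a type and less RNA per cell cannot be told apart.

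Mmp8, the collagenase stored in neutrophil granules, also fell. Its log2 signal was 8.27, 7.76, 7.78 and 8.04 in the livers labelled Plin2-ASO, against 9.39, 10.10, 9.21 and 9.12 in the control livers, with no overlap between groups. The probe was well above background in 3 of 4 livers labelled Plin2-ASO and in all control livers. The mean log2 ratio of -1.49 (SE 0.22, n = 4 arrays, limma adjusted p = 0.0102) is a 2.81-fold decrease. Among 8 measured neutrophil markers 1 fell (S100a9, log2 ratio -1.42) and 7 did not pass, with a median of -0.15. Of these 7, S100a8 had -1.23, Camp, Retnlg, Elane and Ngp lay between -0.26 and -0.10, and Mpo (0.22) and Ltf (0.06) were above 0. A summed signal of 7 of the 8 markers, which weights the brighter ones, was 3704 to 5440 in the livers labelled Plin2-ASO, against 5535 to 7906 in the control livers. Ly6g, which defines neutrophils, was not analysed here. Their part in the Mmp8 result was not tested.

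Mmp13, the main interstitial collagenase of rodents, did not pass the test. Its log2 ratios were -0.18, -0.44, 0.28 and -0.74 on arrays 1 to 4, with 3 of 4 below 0, and the mean was -0.27 (limma adjusted p = 0.394). Without array 3 its mean was -0.45 and passed the threshold (limma adjusted p = 0.0388). The Mmp13 probe was well above background in 2 of 4 livers labelled Plin2-ASO and in all control livers. It thus passed the filter on low signal only through the control livers.

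The gelatinases, which digest denatured collagen and basement membrane, gave means of opposite sign. Mmp2 had log2 signals of 6.54, 7.02, 7.76 and 6.85 in the livers labelled Plin2-ASO, against 7.53, 7.88, 8.06 and 7.36 in the control livers. Each liver labelled Plin2-ASO was below its partner, but the groups overlapped, and no liver labelled Plin2-ASO was well above background, against 3 of 4 control livers. The mean log2 ratio of Mmp2 was -0.66 (SE 0.16, n = 4 arrays, limma adjusted p = 0.0433). Because no liver labelled Plin2-ASO was well above background, the fold is given as a bound. Mmp2 was at least 1.30-fold lower on the offset scale, comparing the control mean with the background bound of the livers labelled Plin2-ASO. That adjusted p belongs to the mean, and the bound was not tested. The scanning software's ratio, which adds no offset, had a mean of -1.62 (adjusted p = 0.0277). The call ended without array 1, 2 or 4, at adjusted p of 0.266, 0.228 and 0.0846. Mmp9, the gelatinase of neutrophils and macrophages, had log2 ratios of 0.51, 0.76, 0.07 and 0.40, all above 0. Its mean of 0.44 did not pass the test (limma adjusted p = 0.119) and did so without array 3, at 0.56 (adjusted p = 0.0127). The levels overlapped, at 10.05, 9.72, 10.39 and 9.46 in the livers labelled Plin2-ASO and 9.53, 8.95, 10.31 and 9.06 in the control livers. A second Mmp9 probe was well above background in no liver and was left out by the filter. Its ratios were -0.22, -0.10, -0.05 and -0.16 on arrays 1 to 4.

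Mmp7, matrilysin, is a small protease of epithelia that in the liver is known from injured bile ducts. Its log2 signal was 6.90, 6.95, 6.92 and 7.36 in the livers labelled Plin2-ASO, against 8.59, 9.24, 8.68 and 7.89 in the control livers. The groups did not overlap, and 1 of 4 livers labelled Plin2-ASO was well above background, against all control livers. The mean log2 ratio was -1.57 (SE 0.27, n = 4 arrays, limma adjusted p = 0.0152), set against livers mostly near background. The scanning software's ratio had a mean of -2.53 (adjusted p = 0.0227). The adjusted p was 0.0816 without array 1 and 0.0760 without array 2. Of 5 measured bile duct markers 1 fell (Krt19, log2 ratio -0.76), and the summed signal of 3 of them was 2938 to 4350 in the livers labelled Plin2-ASO, against 2630 to 5081 in the control livers. Epcam was measured on too few arrays. Their part in the Mmp7 result was not tested.

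Membrane-anchored metalloproteinases act at the cell surface, where Mmp14 activates the Mmp2 precursor and Mmp15 is its close relative. Mmp15 was the 1 gene of the 38 that rose. Its log2 signal was 10.50, 10.19, 10.87 and 10.00 in the livers labelled Plin2-ASO, against 9.74, 9.20, 9.66 and 9.44 in the control livers. All livers labelled Plin2-ASO were above all control livers, and the mean log2 ratio was 0.88 (SE 0.15, n = 4 arrays, limma adjusted p = 0.0152), 1.84-fold higher. The adjusted p was 0.0947 without array 1 and 0.110 without array 2.

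Whether Mmp14 passed the test depended on the probe, while both probes were below 0 on every array that measured them. The brighter probe was measured on 3 arrays, array 3 being dropped for an outlier spot, and read -0.77, -0.53 and -0.24 on arrays 1, 2 and 4, with a mean of -0.52 that did not pass the test (limma adjusted p = 0.122). In the fit without array 3 the same mean had an adjusted p of 0.0229. The other probe read -0.70, -0.52, -0.76 and -0.60 on arrays 1 to 4, with a mean of -0.64 that passed when every probe was fitted alone (limma adjusted p = 0.0216). Fitted in that way, 1 of 52 probes of these genes rose and 7 fell, beside 4.35% higher and 5.64% lower of 25843 probes.

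Mmp19, a protease without a membrane anchor, had a mean log2 ratio of 0.24 (limma adjusted p = 0.451), and Mmp23, a membrane protease that lacks the hemopexin domain, had -0.29 (adjusted p = 0.298). Mmp19 passed without array 3, at 0.43 (adjusted p = 0.0444). Mmp1a, Mmp3, Mmp17, Mmp21 and Mmp24 gave means between -0.16 and 0.24 and did not pass the test. Mmp24 read -1.03 on array 3 and was above 0 on the others, and without array 3 its mean was 0.64 (adjusted p = 0.00509). No probe was above background for Mmp10, Mmp11, Mmp16, Mmp20, Mmp25 and Mmp28.

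Of the 8 genes in the chromosome 9 cluster, ordered along mm7 as Mmp13, Mmp12, Mmp3, Mmp1a, Mmp10, Mmp8, Mmp20 and Mmp7, those that fell were Mmp12, Mmp8 and Mmp7. They were not neighbours in this order: Mmp3 and Mmp1a, between Mmp12 and Mmp8, had means of 0.24 and 0.17 and did not pass the test. Only Mmp20 lies between Mmp8 and Mmp7, and it had no probe above background, so no tested gene separates Mmp8 from Mmp7. Mmp3 read -0.01, -0.43, 1.34 and 0.05 on arrays 1 to 4, and without array 3 its mean was -0.13 (limma adjusted p = 0.496).

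**Figure D2:**
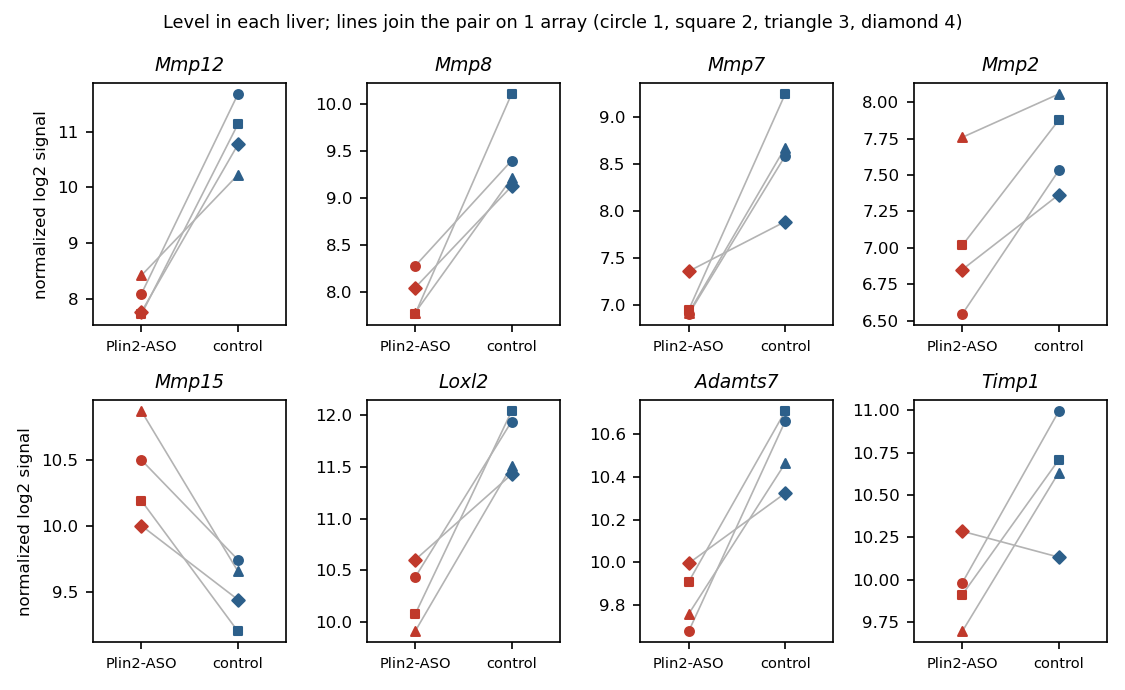
Normalized log2 signal (vertical axis, a separate scale in each panel) of the 7 called genes and Timp1 in each liver, with livers labelled Plin2-ASO in red at left and control livers in blue at right. Lines join the pair on 1 array. The groups do not overlap for Mmp12, Mmp8, Mmp7, Mmp15, Loxl2 and Adamts7, while Mmp2 and Timp1 overlap.

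Among the ADAMTS genes, 1 of 15 fell and none rose, and of 2 ADAMTS-like genes neither passed the test. The 1 was Adamts7, a protease known for cutting cartilage oligomeric matrix protein. Its log2 signal was 9.67, 9.91, 9.76 and 9.99 in the livers labelled Plin2-ASO, against 10.66, 10.71, 10.46 and 10.32 in the control livers. The groups did not overlap, and the mean log2 ratio was -0.71 (SE 0.15, n = 4 arrays, limma adjusted p = 0.0307), a 1.63-fold decrease. The second Adamts7 probe read a mean of -0.30 and was above 0 on array 3 (0.15). The call ended without array 1 or 2 (adjusted p of 0.212 and 0.180), with the mean of both probes (0.0577) and with median centring in place of loess (0.103).

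Adamts12, the closest relative of Adamts7, had a mean log2 ratio of -0.25 (limma adjusted p = 0.256). Its other probes above background had means of 0.11 and -0.10. Adamts4, Adamts5, Adamts1 and Adamts15, which cut the cartilage proteoglycan aggrecan or versican, lay below 0 without passing. Adamts8, given below, was above 0 with a mean of 0.32. Adamts4 was below 0 on all 4 arrays (-0.23, -0.44, -0.89 and -0.64, mean -0.55, adjusted p = 0.0659) and passed without array 3 (-0.44, adjusted p = 0.0328). Adamts5 had a mean of -0.15 over 3 arrays and Adamts1, which also cuts versican, had -0.23. The second Adamts1 probe had a mean of -0.03 and read -0.85 on array 3, where the brighter probe read 0.19. Adamts15, another versican-cutting enzyme, read -0.36, -0.63, -0.12 and -0.65 (mean -0.44, adjusted p = 0.106) and was well above background in 0 of 4 livers labelled Plin2-ASO, against 3 of 4 control livers. The bound on its decrease was at least 1.19-fold, and without array 3 its mean was -0.55 (adjusted p = 0.0126). Adamts9 had a mean of -0.27 (adjusted p = 0.433), with array 3 alone above 0 at 0.45, and without that array it was -0.52 (adjusted p = 0.0191). The second Adamts9 probe was below 0 on all arrays, with a mean of -0.33, and read its lowest value, -0.69, on array 3. That probe was well above background in 1 of 4 livers labelled Plin2-ASO, against all control livers. Adamts20, related to Adamts9, was above 0 on the 3 arrays that measured it, with a mean of 0.49 (adjusted p = 0.156, or 0.0360 in the fit without array 3). Its outlier spot on array 3 read -1.20, and with that spot kept the mean was 0.068 (adjusted p = 0.921).

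The procollagen N-proteinases, which remove the amino-terminal propeptide before fibres form, are Adamts2 and Adamts3 here. Adamts2 had 3 probes above background that disagreed: the brightest, measured on 3 arrays, had a mean of -0.40 (limma adjusted p = 0.216), and the others had -0.53 and 0.17. The outlier spot of the brightest probe on array 4 read 0.13, and with that spot kept its mean was -0.27. The probe with -0.53 was well above background in 0 of 4 livers labelled Plin2-ASO, against 3 of 4 control livers. Adamts3 was above 0 on all arrays, with a mean of 0.36 (adjusted p = 0.170), as was Adamts8, with 0.32 (adjusted p = 0.184). Neither passed, and the groups overlapped for both. Adamts10, which binds fibrillin microfibrils, had a mean of 0.07 with a range of -0.47 to 0.58 over the arrays. Its second probe above background had a mean of -0.06.

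Adamts13, made by hepatic stellate cells, cuts von Willebrand factor and so limits platelet strings. Its log2 signals were between 9.26 and 9.88 in the livers labelled Plin2-ASO and between 9.18 and 10.20 in the control livers. The groups overlapped and the ratios had both signs, from -0.94 on array 3 to 0.70 on array 4, with a mean of -0.06 (limma adjusted p = 0.904). Its substrate Vwf fell, with log2 ratios of -0.83, -1.35, -0.62 and -0.74 (adjusted p = 0.0181). Vwf is 1 of 10 endothelial markers, of which 5 fell and none rose, with a summed signal of 13907 to 19982 in the livers labelled Plin2-ASO, against 24223 to 31731 in the control livers. The part of endothelial cells in the Vwf value was not tested.

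The ADAMTS-like proteins lack the protease domain. Adamtsl5 had a mean of -0.17 (limma adjusted p = 0.647) that rested on array 3, where it read -0.94, against 0.03, 0.06 and 0.17 on the others, and its second probe had a mean of 0.17. Adamtsl3 was represented among all genes by a brighter probe whose name in the file is a RIKEN clone, with a mean of -0.49 (adjusted p = 0.0937), while the probe carrying its name read 0.22. Adamts6, Adamts19, Adamtsl1 and Adamtsl4 had no probe above background under these names. Adamts16, Adamts18 and Adamtsl2 had means between -0.28 and 0.12 and did not pass the test.

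The inhibitors did not pass the test. Timp1, known as the TIMP most strongly induced in liver scarring, had log2 signals of 9.98, 9.91, 9.70 and 10.29 in the livers labelled Plin2-ASO, against 10.99, 10.71, 10.63 and 10.13 in the control livers. Arrays 1 to 3 each read a lower level in the liver labelled Plin2-ASO and array 4 a slightly higher one, so the groups overlapped. The mean log2 ratio was -0.65 (SE 0.21, n = 4 arrays, limma adjusted p = 0.104), and without array 4 it was -0.91 (adjusted p = 0.0228). The 3 Timp1 probes, whose sequences are given above, disagreed. The probe at chrX:19305929-19305988 read -1.70, -1.23, 0.40 and 0.05, and its neighbour at chrX:19305989-19306238 read 0.10, 0.02, 0.70 and -0.06. Neither passed when fitted alone (adjusted p of 0.282 and 0.499).

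Timp2, which besides inhibiting proteases helps Mmp14 activate the Mmp2 precursor, was measured on 3 arrays with a mean of -0.25 (limma adjusted p = 0.391). Timp3, which is bound to the matrix and also blocks Adam17, and Timp4 had outlier spots on 2 and 3 of the 4 arrays and could not be tested. With those spots kept, Timp3 read -0.33, -0.76, 0.13 and -0.64 (mean -0.40, adjusted p = 0.226) and Timp4 read 0.19, 0.35, -1.12 and 0.62 (mean 0.01, adjusted p = 0.987). Of the Timp3 values those of arrays 1 and 3, and of the Timp4 values those of arrays 1, 3 and 4, are the outlier spots.

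**Figure D3:**
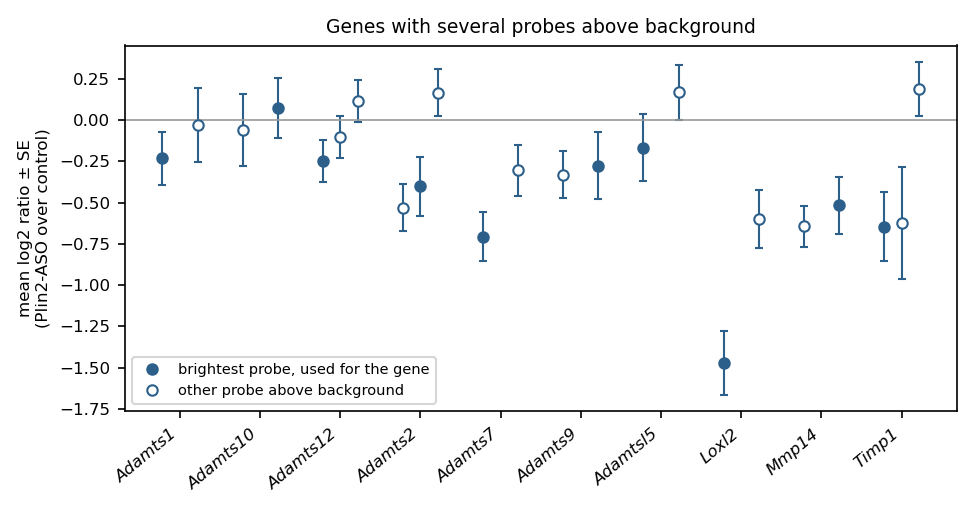
Mean log2 ratio with its SE (vertical axis, livers labelled Plin2-ASO over control livers) for each probe above background of the 10 genes that had several such probes, when each probe was fitted alone. Filled points are the brightest probe, used for the gene, and open points the others. For 5 of the 10 genes the probes lie on both sides of 0, and Loxl2 keeps its sign with means of -1.47 and -0.60.

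The crosslinkers gave the second smallest p of the 38 genes in Loxl2, a lysyl oxidase relative known for crosslinking collagen in scarring liver. Its log2 signal was 10.43, 10.07, 9.91 and 10.60 in the livers labelled Plin2-ASO, against 11.94, 12.04, 11.51 and 11.43 in the control livers. The groups did not overlap, and the smallest ratio was on array 4. The mean log2 ratio was -1.47 (SE 0.19, n = 4 arrays, limma adjusted p = 0.00658), a 2.77-fold decrease, and it passed in all 18 alternative settings. The second probe, whose sequence is given above, read -0.32, -0.78, -1.09 and -0.21, with a mean of -0.60 that did not pass alone (adjusted p = 0.0771).

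Loxl1, needed for elastic fibres, had log2 signals of 8.11, 8.01, 8.81 and 7.95 in the livers labelled Plin2-ASO, against 9.20, 9.49, 8.60 and 8.58 in the control livers. It was lower on arrays 1, 2 and 4 and slightly higher on array 3, with a mean log2 ratio of -0.75 (SE 0.26, n = 4 arrays, limma adjusted p = 0.124), and without array 3 it was -1.07 (adjusted p = 0.00296). Loxl3 had a mean of -0.30 (adjusted p = 0.270), or -0.42 without array 3 (adjusted p = 0.0409), and Loxl4 had 0.16 (adjusted p = 0.541). The founding member, Lox, had no probe above background.

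Stellate cells and myofibroblasts are known sources of lysyl oxidases, and their markers were measured beside Loxl2. Of 12 such markers 4 fell (Sparc, Dcn, Lum and Lrat), none rose and 8 did not pass the test. Of these 8, Gfap, Pdgfra, Acta2, Reln and Ngfr had means above 0, between 0.09 and 0.24. The summed signal of 11 of the 12 markers was 44929 to 60837 in the livers labelled Plin2-ASO, against 88521 to 135204 in the control livers. This sum weights the brighter markers, foremost Dcn and Sparc, which are among the 4 that fell. The median log2 ratio of the 12 markers was -0.32, and the part of these cells in the Loxl2 result was not tested. All 8 hepatocyte markers were above background and could be tested. Of these Alb fell (log2 ratio -1.70) and 7 did not pass, among them Hnf4a (0.78) and Hpd (0.72), and the median was 0.09. Of 5 adipocyte markers Cfd rose (3.78) and 4 did not pass, among them Cidec (-1.42). The median log2 ratio of the adipocyte markers was 1.96 on array 3, against 0.18, -0.17 and 0.20 on arrays 1, 2 and 4. On array 3 Cfd read 6.45, Adipoq 4.10 and Plin1 1.96, while Cidec read 0.04 and Lep -0.13. Cfd was above 0 on the other arrays too. The part of adipocytes in the values of array 3 was not tested. Neither of 2 measured mesothelial markers passed. Retn of adipocytes and the mesothelial Lrrn4, Upk1b and Wt1 had no probe above background.

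The substrates and partners of these enzymes were described in 7 lists with 113 genes, of which 100 could be tested. In these lists 3 genes rose, 23 fell and 74 did not pass, with a median log2 ratio of -0.31. Over all 18044 genes tested 3.69% were called higher and 6.08% lower. With probes well above background on all arrays in both colours, 3 genes of the lists rose and 20 fell. Over all 15079 genes of that fit 3.78% were higher and 5.6% lower. Of 12 fibrillar and other interstitial collagens 7 fell and 1 rose, with a median of -1.14. Among those that fell, Col5a2 was well above background in 0 of 4 livers labelled Plin2-ASO, against all control livers. It thus passed the filter on low signal only through the control livers. Col1a1 (-2.95, limma adjusted p = 0.00482) and Col3a1 (-2.61, adjusted p = 0.00417), the chains of the main scar collagens, fell, and Col5a3, a minor chain of collagen V, rose (1.28, adjusted p = 0.00423). On arrays 1 to 4 the Col1a1 ratios were -3.35, -4.10, -1.70 and -2.64, while those of Col5a3 were 1.34, 1.43, 1.44 and 0.91.

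Elastic fibres, which Mmp12 cuts and lysyl oxidases crosslink, had 4 of 16 measured genes that fell and none that rose (median -0.44). They included Fbln5 (-2.10), a fibulin that organises elastin, elastin itself (Eln, -1.11) and Efemp2 (-1.04), which brings lysyl oxidase to elastin. Of 18 basement membrane genes 3 fell and 1 rose (median -0.33): Nid1, which links laminin to collagen IV, had -1.73, Col4a5 had -0.97 and Lama3 had 0.83. Col4a5 was well above background in 1 of 4 livers labelled Plin2-ASO, against all control livers. It too passed the filter on low signal only through the control livers. Of 8 proteoglycans 2 fell, Dcn (-1.39) and Lum (-2.03), both small proteins that space collagen fibrils, and the median was -0.11. Dcn and Lum are also counted among the stellate cell markers.

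Enzymes that prepare collagen before secretion had 3 of 15 measured genes that fell and none that rose (median -0.17): Plod2 (-1.11) hydroxylates the lysines that crosslinks use, Crtap (-1.19) belongs to the prolyl hydroxylation complex and Serpinh1 (-0.91) is a collagen chaperone. In the plasminogen and membrane ADAM list 2 of 17 fell and 1 rose (median -0.17). Adam8, a membrane protease of leukocytes, had -2.52 and Adam15 had -1.21, while Serpine2, an inhibitor of plasminogen activators and thrombin, had 1.26. In the TGF-beta list, whose ligands drive matrix genes, 2 of 14 fell and none rose (median -0.18), Tgfb1 with -0.90 and Tgfb3 with -1.10. Without array 3 the lists together had 48 genes that fell and 9 that rose, beside 20.8% lower and 12.5% higher of 17394 genes. Without array 1 or 2 the lists had 5 that fell, beside 1.27% lower of 16471 genes and 1.19% lower of 16194 genes.

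**Figure D4:**
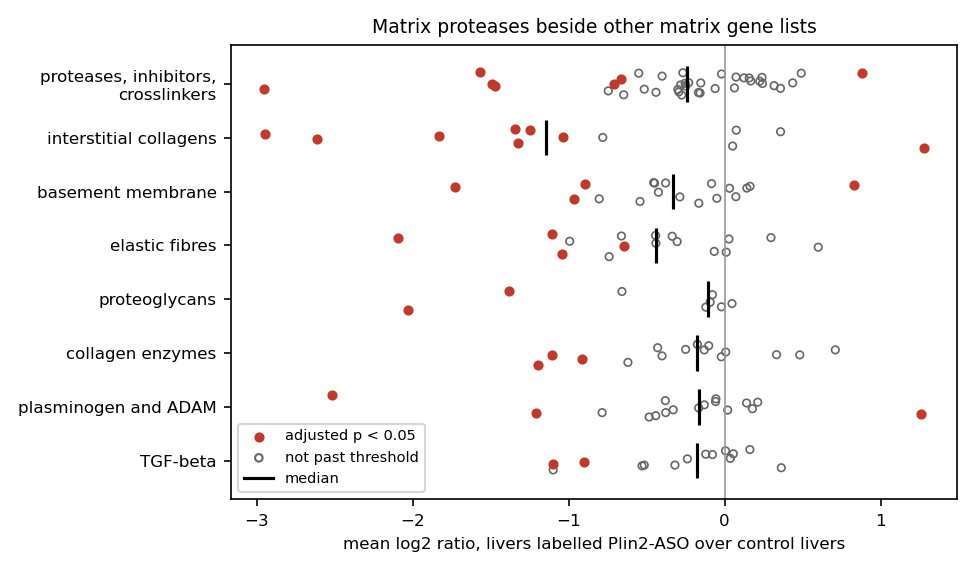
Mean log2 ratio (horizontal axis, livers labelled Plin2-ASO over control livers) of every tested gene in the proteases, inhibitors and crosslinkers and in 7 lists of other matrix genes, a row for each list. Points are genes, red where the adjusted p is under 0.05, and vertical bars are list medians. The median of the interstitial collagens lies furthest left at -1.14, and that of the proteases, inhibitors and crosslinkers is -0.24.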

How the data were processed

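Liver RNA of 4 mice labelled Plin2-ASO and 4 control mice was measured on 4 Agilent arrays (design 014868, positions in mm7). Per the labels, RNA was extracted with Trizol and amplified with the Ovation aminoallyl system. Per the file headers, the deposited intensities come from Feature Extraction 9.5.1.1. Of these, each spot's mean signal and median local background were used (45018 spots an array). The deposited log10 ratios, with red on top, were corrected by that software for background and dye, and the authors' series value table gives them as log2 ratios (largest difference 0 over 41174 probes, column medians 0). Both served as alternatives, with the sign turned.

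Normexp (offset 50) corrected the background, and loess normalized the ratios of each array, with limma 3.58.1 in R 4.3.3 with statmod 1.5.0 and data.table (version 1.17.8). The 1639 control spots were left out, outlier spots were set missing (1.80% to 7.69% per array), and spots of a probe were averaged. Probes well above background on at least 3 of 4 arrays in 1 channel were kept (27160 of 41174), and a gene took its brightest kept probe measured on at least 3 arrays. Of 18641 such genes 597 were measured on too few arrays and 18044 were tested. The mean log2 ratio was tested against 0 (lmFit, eBayes, two-sided, 7.21 total degrees of freedom) with Benjamini-Hochberg over all genes. Adjusted p for single probes is over all kept probes, standard errors are moderated and intervals are at 95%. Levels per liver are log2 signals after loess and quantile scaling of the average signal. Where every liver of a group lacked signal well above background, the fold is a bound, taken against the lowest signal that was. The number of arrays limits the precision. Arrays pair 1 mouse of each group, and that pairing is part of the test because both were hybridised together.

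Of the 87 probes, 61 were named by accession and 26 by symbol through the RefSeq table (GRCm38.p6, names only). Genes and lists were chosen with earlier results of these data known. The genes given with their values are all those past the threshold, every measured Timp and Loxl gene, 12 fixed Mmp and Adamts genes, genes with several kept probes, the 3 highest and 3 lowest of the rest, and the 3 smallest p per list. Single cell markers, Mmp3, Mmp1a, Mmp24 and Col5a2 were named after their values were seen. The result of 1 marker list is not reported here. The alternatives were other background corrections, the ratios of the scanning software and of the value table, median centring, other background filters, other uses of several probes, outlier spots kept, a trended robust variance, channels as separate samples with the intraspot correlation or independent, a threshold of 0.1, and leaving out each array.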

Additional observations from a re-analysis of the deposited data

Results flagged for a closer look

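Of 26 named genes checked for an array far from the others, 1 was found: Adamtsl5 had a log2 ratio of -0.94 on array 3, while arrays 1, 2 and 4 gave 0.03, 0.06 and 0.17. The gap to the nearest array was 0.877 of the whole range, above Dixon's 95% limit for 4 values. Chance alone marks about 1 in 20 such groups.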

How the results depend on the processing

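The decreases of Mmp12 and Loxl2 passed in all 18 alternatives, and that of Mmp8 in all 17 that gave it a value, with adjusted p (limma) of at most 0.0219, 0.0439 and 0.0394. Leaving out each array in turn gave 0 to 5 members higher and 3 to 13 lower, and among the companion matrix genes 1 to 9 higher and 5 to 48 lower, with the highest counts without array 3. Over all genes these fits called 0.886% to 12.5% higher and 1.19% to 20.8% lower, also highest without array 3. Probes well above background on all arrays in both channels left 3 members lower, with 30 tested, beside 5.6% lower of 15079 genes. Companion genes higher numbered 5 with every kept probe fitted alone, where 4.35% of 25843 probes were higher. They numbered 6 at an adjusted p under 0.1, where 1197 of 18044 genes were higher. Reversals were small: Adamts5 was 0.058 with median centring and Adamtsl5 was 0.00050 with the mean of all kept probes. Leaving out an array gave -0.28 (without array 4) to 0.088 (without array 3) for Adamtsl5, -0.32 (4) to 0.23 (3) for Adamts13 and -0.10 (4) to 0.26 (3) for Adamts10. None of these passed the threshold, and the cause was not tested. With the channels as independent samples and no pairing block, 1 member was higher and 5 were lower. Over all 18044 genes that fit called 567 higher and 1117 lower. The software's ratios and the series table brought Adamts15 past the threshold (-1.42, adjusted p of 0.0464 and 0.0485), and the intraspot correlation Timp1 (adjusted p = 0.0451). Mmp2 ended at 0.0537 with outlier spots kept, 0.0691 with the intraspot correlation and 0.143 with independent channels, and Adamts7 at 0.0558 and 0.0633 with the software's ratios and the series table. For Mmp2, Mmp7, Mmp13 and Adamts15, and for Col5a2 and Col4a5 among the companion genes, signal over background limits the fold.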
